A study of Sus scrofa with 189 samples.

Results

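The proteasome genes of pig longissimus dorsi, a back muscle sampled here at the thoracolumbar junction, were taken as every gene of the deposited table whose symbol starts with PSMA, PSMB, PSMC, PSMD, PSME, PSMF or PSMG, with transcripts summed per gene identifier. The rule found 37 of 12651 genes, with 57 of 18114 transcripts, and 36 of the 37 had a mean of at least 0.5 FPKM and entered the tests over 10717 genes. FPKM are fragments scaled to transcript length and to the mapped fragments of a library. The table's header names no unit, and the values were taken as FPKM from their layout. The remaining one was PSMC3IP, a recombination factor that shares the prefix but is no proteasome subunit. It had 0.249 ± 0.148 FPKM (SD, n = 189) and was listed at 0 in 12 libraries. A further 6 subunit genes carry only an identifier in the table and are named by the reference table, so that the rule does not take them: PSMA1, PSMA2, PSMD4, PSMD8, PSMD9 and PSME2. They are given beside the 37 where they bear on them. PSMB5 was not analysed here.

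The proteasome is the barrel-shaped protease that degrades proteins tagged with ubiquitin. Its 20S core is built of alpha rings, which form the gate, and beta rings, which hold the cutting sites, and the 19S cap recognises, unfolds and feeds in the substrate with its ATPases. In cells exposed to interferon and in immune cells, PSMB9 takes the place of the constitutive catalytic subunit PSMB6, PSMB10 that of PSMB7 and PSMB8 that of PSMB5, which changes the peptides made for presentation on MHC class I. In skeletal muscle, the ubiquitin-proteasome system degrades contractile proteins during atrophy, after ligases such as FBXO32 and TRIM63 have tagged them.

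The 189 animals were first-generation crosses of 8 Duroc boars with Luchuan sows (158 in the design text, 112 in the growth protocol), fed alike on 1 farm and slaughtered at 210 ± 6 days of age. The labels name no treatment or genotype, and polyadenylated RNA was sequenced from muscle taken 25 minutes after death. Intramuscular fat content (IMF) is the only recorded trait and its unit is not stated. The titles of 21 animals carry the unexplained mark "re-analyzed": 10 of high IMF (6.03 ± 0.636) and 11 of low IMF (1.69 ± 0.433). Of the 168 unmarked animals, 143 have a recorded IMF (3.34 ± 0.850) and 25 have none. Each title also holds a code. Its first 2 digits are 16 in 120 animals and 15 in 69, 48 codes of 9 digits recur among animals, covering 146 of them, and the meaning of either is not stated. Parents are not given per animal, so that p-values treat animals as independent.

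Summed FPKM per library lay between 364109 and 465105, and read depth is unknown. Unmarked libraries 39 and 122 had the lowest median correlations with the other libraries (both 0.909). Of 12 muscle fibre markers 11 were measured and none of these was at 0 in any library, with summed levels of 38533 to 106284 FPKM in re-analyzed and 44233 to 138956 FPKM in unmarked animals with IMF. Re-analyzed libraries stood apart from unmarked ones across the transcriptome: of 10717 genes, 1964 were higher and 2436 lower in them.

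The 37 genes together made up 770 to 1775 FPKM per library (median 1025), or 0.175% to 0.441% of the summed FPKM. Re-analyzed library 104, of low IMF, had the highest sum and was the highest of all libraries for 7 genes. The median of the mean levels was 22.9 FPKM over the 36 tested genes and 4.16 FPKM over all tested genes, and 33 of the 36 lay above 4.16 FPKM. FPKM differed widely between the genes, although the constitutive subunits of core and cap are assembled in equal numbers. Assembly chaperones such as PSMD10 and PSMG3 are not among these subunits. The listed transcript length, to which FPKM are scaled, differed too. It was 1263 bases for the main transcript of PSMD11 and 1075 for PSMB7, against 5022 for PSMB3 and 5573 for PSMD10. The other way round, the main transcript of PSMA7 had 5091 bases and that of PSMG3 1132. What part length had in the order of the genes was not tested.

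Among the alpha ring genes, PSMA7 was the highest with 45.5 ± 10.6 FPKM (SD, n = 189), and PSMA3 (25.2 ± 11.1), PSMA6 (23.3 ± 4.27), PSMA4 (21.0 ± 5.45) and PSMA5 (11.1 ± 3.03) followed. The SDs of PSMA3, PSMA6 and PSMA4 span each other's means. Of those named by identifier, PSMA1 averaged 23.9 ± 7.63 FPKM and PSMA2 14.3 ± 3.62 FPKM. The constitutive catalytic genes were PSMB7 at 62.3 ± 12.2 FPKM and PSMB6 at 34.1 ± 5.27 FPKM. PSMB6 was also among the steadiest genes of the muscle, ranging only from 20.9 to 51.1 FPKM (median 33.5), and 3.96% of tested genes had a lower SD of log2(FPKM + 1). The non-catalytic beta genes were PSMB1 (57.4 ± 17.4 FPKM), PSMB4 (25.3 ± 5.71), PSMB2 (23.6 ± 5.37) and PSMB3 (9.20 ± 2.32).

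The 3 immune catalytic genes were the lowest of the 20S core. PSMB8 ranged from 2.16 to 14.1 FPKM with a median of 5.98. PSMB9 ranged from 1.18 to 9.18 FPKM with a median of 3.34, and PSMB10 from 0.473 to 4.62 FPKM with a median of 1.72. PSMB9 stood at 10.7 ± 4.42% of the FPKM of PSMB6, from 3.52% to 34.4%, and PSMB10 at 2.95 ± 1.13% of PSMB7. The immune gene was below the constitutive one that it replaces in 189 of 189 animals for both pairs. The listed transcripts have 3747 and 5350 bases for PSMB10 and 1075 for PSMB7, and 1331 for PSMB9 and 2919 for PSMB6. PSMB10 also overlaps PSKH1 by 3245 bases on the other strand. What part lengths and overlap had in these percentages was not tested.

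In the 19S cap, the ATPase genes, whose products unfold the substrate, ranged from PSMC5 at 77.5 ± 15.3 FPKM to PSMC6 at 10.2 ± 5.19 FPKM. The non-ATPase genes included the highest of all 37, the scaffold gene PSMD11 at 100.04 ± 27.8 FPKM, followed by PSMD3 (98.6 ± 23.5), whose mean lay within its SD, and by PSMD2 (74.1 ± 21.9), whose mean lay outside the SD of PSMD3. PSMD7, the partner of the deubiquitinase PSMD14, averaged 61.3 ± 17.6 FPKM, PSMD14 itself, which removes the ubiquitin chain, 22.5 ± 10.0 FPKM, and PSMD12 15.3 ± 7.31 FPKM. The ubiquitin receptor PSMD4, named by identifier, averaged 90.7 ± 20.3 FPKM. The cap's assembly chaperones were low, PSMD5 at 5.75 ± 1.66 FPKM and PSMD10, the lowest tested gene of the 37, at 1.05 ± 0.278 FPKM, and PSMG3, a chaperone of core assembly, averaged 8.13 ± 1.84 FPKM.

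Regulators that dock on the core in place of the cap were of middle level. PSME1, an interferon-induced subunit of the 11S activator, averaged 14.3 ± 5.36 FPKM and its partner PSME2, named by identifier, 7.03 ± 1.53 FPKM. The nuclear activators PSME4 and PSME3 averaged 7.36 ± 5.29 and 4.60 ± 1.09 FPKM, and the inhibitor gene PSMF1 12.6 ± 3.08 FPKM. How reads were divided between overlapping genes is not stated in the labels, and 16 of the 37 overlap another listed gene, among them PSME1, which shares 2980 bases with FITM1. On the other strand, PSMD13 shares 1534 bases with COX8H (mean 315 FPKM, correlation r = 0.485) and PSMA5 504 with SYPL2 (135 FPKM, r = -0.38). PSMD2 shares 131 bases with EIF4G1 on the same strand (r = 0.78). What part the overlaps had in the values of these genes was not tested.

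**Figure D1:**
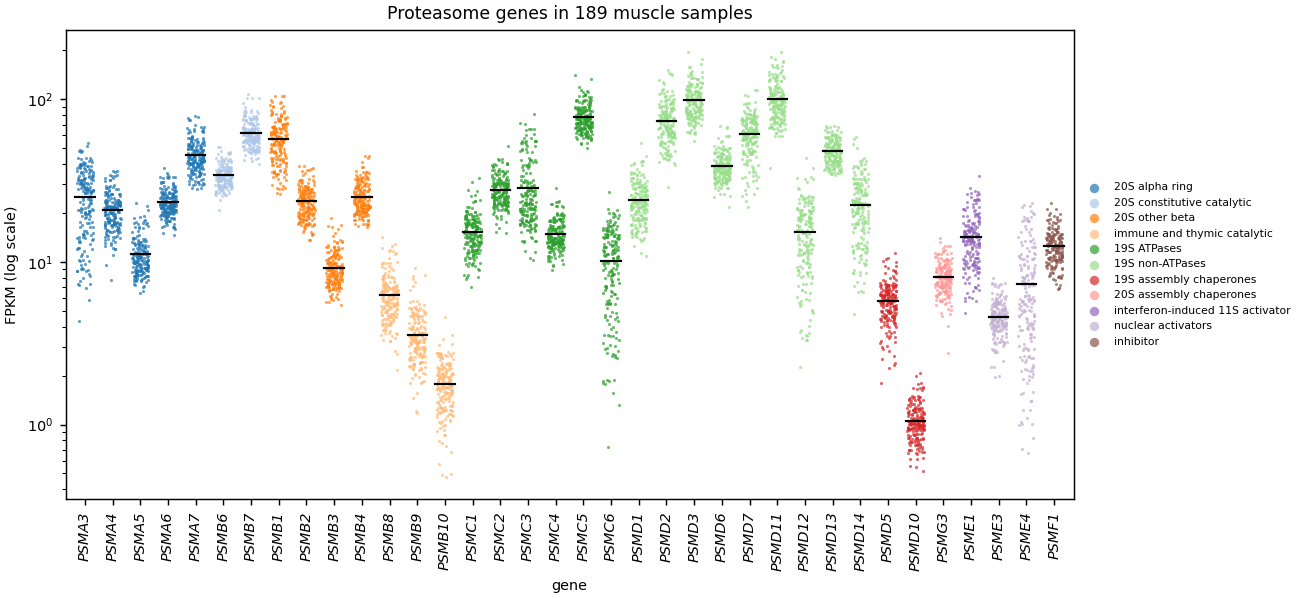
FPKM on a log axis of the 36 tested proteasome genes, 1 point per animal (n = 189), with the mean as a bar and colours for the roles. The immune catalytic genes PSMB8, PSMB9 and PSMB10 lie below PSMB6 and PSMB7, and the points of PSMC6 and PSME4 are the most spread.

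Of the 36 genes 22 varied less between animals than the median tested gene. The SD of log2(FPKM + 1) had a median of 0.33 over the 36 genes and of 0.37 over all tested genes. A few varied far more. PSME4 ranged from 0.670 to 23.1 FPKM with a median of 5.77 (SD 0.92 log2 units), a 34.4-fold range, and 97.8% of tested genes had a lower SD. The ATPase gene PSMC6 ranged from 0.725 to 27.1 FPKM with a median of 10.3 (SD 0.81), a 37.3-fold range. PSMD12 (SD 0.73), PSMA3 (SD 0.71), PSMD14 (SD 0.65) and PSMC3 (SD 0.62) came next.

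The spread of PSMC3, the gene of another cap ATPase (Sscrofa11.1, chromosome 2, 15167009 to 15193069, plus strand), came mainly from 1 of its 2 listed transcripts. Its transcript of 8 exons (2538 bases) ranged from 7.41 to 36.1 FPKM with a median of 17.6. The transcript of 18 exons (4371 bases) ranged from 1.08 to 55.5 FPKM with a median of 4.83 and was spread unevenly. In 144 animals it was under 10 FPKM, in 13 between 10 and 20 FPKM, and in 32 at 20 FPKM or more, limits that were chosen after the values were seen. In 31 animals it exceeded the 8-exon transcript. The 32 animals belonged to 28 title codes and included 4 of the 21 re-analyzed animals, 24 of the 143 unmarked animals with IMF and 4 of the 25 without. By title digits they were 14 of the 120 animals with 16 and 18 of the 69 with 15, a difference that was not tested. SLC39A13 overlaps PSMC3 by 2018 bases on the other strand, and the 2 genes had r = -0.03 over the 189 animals.

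**Figure D2:**
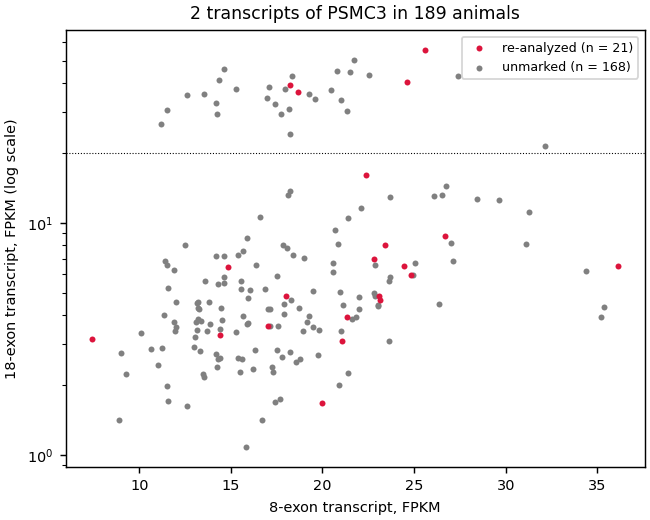
FPKM of the 18-exon transcript of PSMC3 (log axis) against its 8-exon transcript, 1 point per animal, in 21 re-analyzed and 168 unmarked animals. The dotted line is at 20 FPKM, and 32 animals lie above it over much of the range of the 8-exon transcript.

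How far the subunits moved together from animal to animal was described by Pearson's r of log2(FPKM + 1) over the 189 animals, centred within the re-analyzed and unmarked sets. All genes of a library share its depth and scaling, and no p is given. Among the 26 genes of the alpha ring, the constitutive beta ring, the ATPases and the non-ATPases, r had a median of 0.48 over 325 pairs, and 304 pairs were positive. The constitutive beta genes were closest as a class (median 0.61, from 0.45 to 0.83 over 15 pairs). Across the core and cap, PSMB4 and the ATPase PSMC4 had r = 0.89.

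In a group of genes gathered after the values were seen, r was higher still. PSMA3, PSMC6, PSMD5, PSMD7, PSMD12 and PSMD14 had a median r of 0.85 over their 15 pairs (0.64 to 0.95), highest between PSMA3 and PSMC6. Within the 21 re-analyzed animals the 15 pairs were looser, with a median of 0.65 (0.19 for PSMC6 with PSMD5 to 0.92 for PSMD7 with PSMD14), against a median of 0.86 within the unmarked animals. All 6 genes went with the makeup of the library: r was -0.84 to -0.62 with the share of its 10 most abundant genes, 0.69 to 0.79 with the number of genes at 1 FPKM or more and 0.62 to 0.76 with the mitochondrial share, whose part was not tested. The 6 genes had a median r of only 0.29 with the other core and cap genes, from -0.31 for PSMA3 with PSMB1 (0.70 within the 21 re-analyzed animals) to 0.90 for PSMD7 with PSMC1. The group has no sharp edge. PSMC1, which was left out, had r of 0.57 with PSMD5 and from 0.75 (PSMA3) to 0.90 (PSMD7) with the others of the group. PSME1 went against all 6 (r -0.50 to -0.24), and so did PSMF1 (-0.37 to -0.19). PSMC6 overlaps STYX by 374 bases on the same strand (r = 0.88), so that reads of these 2 genes may not be separable.

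Among the 3 immune catalytic genes, PSMB8 and PSMB9 went closely together (r = 0.83). PSMB10, which lies on another chromosome, had r between 0.37 and 0.39 with them. The inhibitor gene PSMF1, outside the immune genes, had r of 0.29 with PSMB8, 0.30 with PSMB9 and 0.21 with PSMB10. With the 26 core and cap genes, r of the 3 immune catalytic genes had a median of -0.06 (-0.27 to 0.23 over 78 pairs). PSMB8 (chromosome 7, 25057725 to 25061533, minus strand) and PSMB9 (25071712 to 25077233, plus strand) flank the peptide transporter gene TAP1 in the MHC region. TAP1 overlaps PSMB9 by 327 bases on the other strand (r = 0.75). PSME1 had r between 0.21 and 0.37 with the 3 immune catalytic genes. Within the 21 re-analyzed animals PSMB8 and PSMB9 had r = 0.85, while PSMB10 had r of 0.03 and 0.14 with them and PSME1 had r of -0.13 to -0.01 with the 3.

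**Figure D3:**
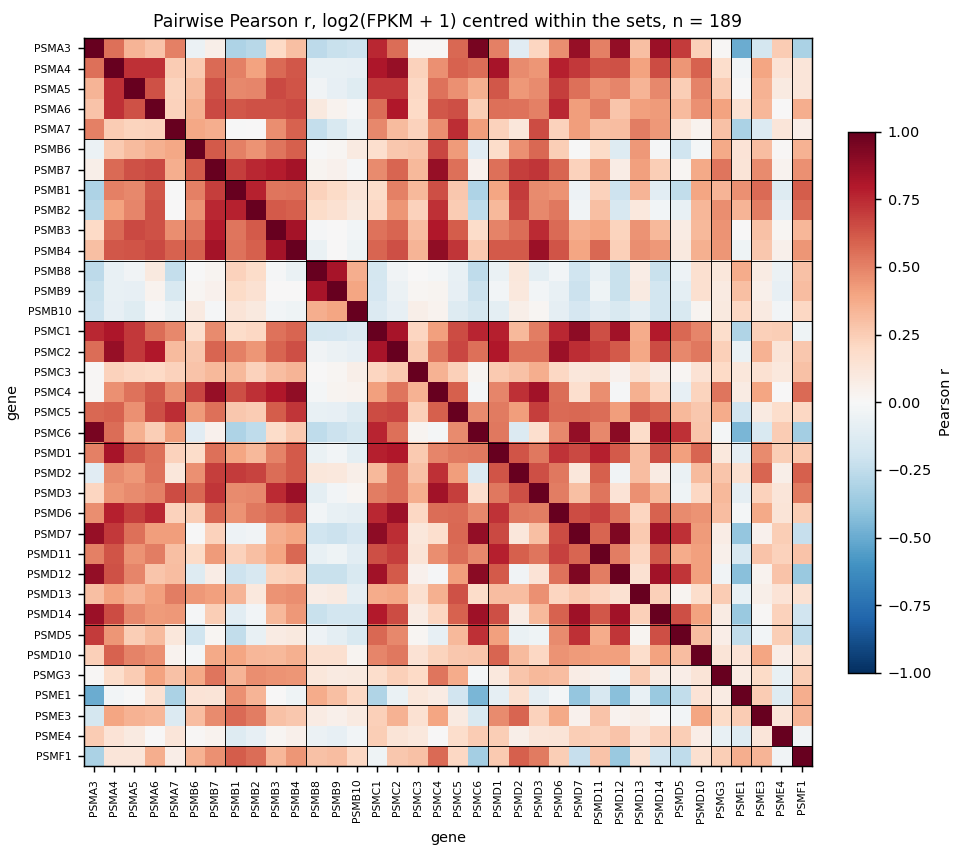
Pearson's r of log2(FPKM + 1) for every pair of the 36 tested proteasome genes over 189 animals, centred within the re-analyzed and unmarked sets, ordered by role (lines separate the roles; red is positive, blue negative). PSMB8 and PSMB9 form a red block (r = 0.83) in rows that are otherwise pale, and PSMA3, PSMC6, PSMD7, PSMD12 and PSMD14 form dark red cells off the diagonal.

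Mean z scores, 1 over the 26 core and cap genes and 1 over PSMB8, PSMB9, PSMB10, PSME1 and PSME2, had r = -0.05 with each other over the 189 animals. The genes outside the 37 most like the core score were NSFL1C, a cofactor of the unfoldase p97 (r = 0.82), HSBP1 (0.80), SNRPD3 (0.79), C9orf78 (0.75), FAM192A (0.74), ETFDH, POMP, RHEB, RAB12 and TTC1 (0.72 to 0.73). POMP encodes the chaperone that matures the 20S core. The median over all other tested genes was 0.19. The core score also went with the share of the library held by its 10 most abundant genes (r = -0.58) and with the number of genes at 1 FPKM or more (r = 0.38), whose part in these values was not tested.

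The 10 genes outside the set that were most like the immune score included several of antigen presentation. SLA-DMB, which loads MHC class II, had r = 0.81, TAP1 0.80, HLA-DRA 0.79, IFI35 0.76, the MHC class I light chain B2M 0.75, and the antiviral gene BST2 0.75. GM2A, STAT2, IFITM3 and 1 gene without a symbol had r of 0.73 to 0.74, and the median over all other tested genes was 0.00. By list, the immune score had r = 0.79 with a score of antigen processing genes, 0.70 with macrophage and lymphocyte markers and 0.63 with interferon response genes, against 0.06, -0.04 and -0.11 for the core score. Of 19 such markers 16 were measured, of which CD163, CD3E, CD3D and CD8A were at 0 in at least 1 library. In whole muscle, fewer cells of a type and less RNA per cell cannot be told apart.

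Whether the genes follow the fat content of the muscle was asked over the 164 animals with IMF, with the mark as a covariate. None of the 36 genes passed the test (limma, Benjamini-Hochberg adjusted p under 0.05), where 0.084% of all genes did. At an unadjusted p under 0.05 there was 1, the core chaperone gene PSMG3 (slope 0.05 log2 units per IMF unit, SE 0.0199, adjusted p = 0.941). The median slope was 0.02 over the 36 genes and 0.01 over all genes. For comparison, 4 of 10 fat cell markers rose with IMF in the same fit, LEP, ADIPOQ, TUSC5 and PLIN1. Slopes of the immune genes were -0.01 (SE 0.0278) for PSMB8, -0.02 (SE 0.0265) for PSMB9 and 0.03 (SE 0.0215) for PSMB10. Within the 143 unmarked animals, 0 genes of the 36 were called and 0 had an unadjusted p under 0.05 (limma; 0.0% of all genes were called). No difference of slopes between the sets was called either (0.0% of all genes), with 1 gene, PSMD2, at an unadjusted p under 0.05.

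The 10 re-analyzed animals of high IMF had a summed proteasome level of 1244 ± 188 FPKM, against 1126 ± 258 FPKM in the 11 of low IMF. Without library 104, of low IMF, the 10 remaining animals of low IMF averaged 1061 ± 150 FPKM. Point estimates were higher at high IMF for 32 of the 36 genes and for 7827 of all 10717 genes, with medians of 0.14 and 0.07 log2 units. In this comparison 0 of the 36 were called and 0 had an unadjusted p under 0.05 (limma), where 0.084% of all genes were called. Without library 104 the members called stayed at 0, while the calls over all genes went to 17 in place of 9. The largest difference was that of the cap scaffold gene PSMD2 (0.36, SE 0.190, limma adjusted p = 0.986). All 10 animals of high IMF lay above its median at low IMF, and 0 above its highest value there. PSMC2 had the smallest unadjusted p (0.21, SE 0.107, limma p = 0.0575). At this group size no difference was shown for a single gene.

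Of the 26 core and cap genes 14 were higher in re-analyzed than in unmarked animals with IMF as a linear covariate, and 0 were lower. The sets were not matched in IMF. Re-analyzed animals lay at 0.77 to 2.33 and 4.83 to 6.84, and unmarked ones between 1.19 and 5.61. Of the 36 genes 15 rose in re-analyzed animals (limma, adjusted p under 0.05), or 41.7%, where 18.3% of all genes did. A single gene fell, or 2.78%, where 22.7% of all genes did. The median difference was 0.14 log2 units over the 36 and -0.01 over all genes. The shares of all genes depended on level. When only those averaging 5 FPKM or more were kept, 1256 of 4804 were higher and 997 lower, with a median of 0.03. The same 15 proteasome genes were called higher there. How the 36 compare with genes of like level was not tested. The 15 were 4 of 5 alpha ring genes, PSMB7 and 2 other beta genes, 3 of 6 ATPases, 4 of 9 non-ATPases and the chaperone PSMD5. Among those named by identifier, PSMA1, PSMA2 and PSMD4 rose and the chaperone PSMD9 fell. PSMA3, PSMC6, PSMD5, PSMD7, PSMD12 and PSMD14, the group gathered above that went with the makeup of the library, were all among the 15. The share of the 10 most abundant genes averaged 30.7 ± 4.01% in re-analyzed and 33.6 ± 4.63% in unmarked animals with IMF. Its part in these rises was not tested. What the mark stands for is not stated, so that handling, sequencing and the choice of animals cannot be told apart.

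The alpha ring gene PSMA3 ranged from 26.7 to 51.7 FPKM in the 21 re-analyzed animals with a median of 35.8. In the 143 unmarked ones it ranged from 4.34 to 53.8 FPKM with a median of 24.2. All 21 lay above the unmarked median, although the ranges overlap. The difference was 0.68 log2 units (SE 0.158, limma adjusted p = 0.000254). PSMC6 ranged from 8.85 to 21.3 FPKM (median 14.2) in re-analyzed animals, against 0.725 to 27.1 FPKM (median 9.87) in unmarked ones. Of the 21, 20 lay above the unmarked median, and the difference was 0.68 (SE 0.181, adjusted p = 0.00144).

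The deubiquitinase gene PSMD14 ranged from 21.4 to 58.8 FPKM (median 30.7) in re-analyzed animals, against 4.81 to 56.7 FPKM (median 20.2) in unmarked ones. Again 21 of 21 lay above the unmarked median (difference 0.65, SE 0.145, adjusted p = 0.000139). PSMC5, the gene with the smallest adjusted p of the 36, ranged from 58.9 to 141 FPKM (median 98.2) in re-analyzed animals, against 50.4 to 115 FPKM (median 73.2) in unmarked ones. It was above the unmarked median in 18 of 21, and 3 exceeded every unmarked animal (difference 0.34, SE 0.0587, adjusted p = 1.39e-06).

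The other genes that rose were PSMD12 (0.46), PSMD7 (0.34), PSMB3 (0.31), PSMA5 (0.30), PSMA7 (0.28), PSMD5 (0.23), PSMC1 (0.21), PSMA6 (0.19), PSMB4 (0.18), PSMB7 (0.15) and PSMD13 (0.15). With quantile normalization PSMB4 (0.13), PSMB7 (0.08) and PSMD13 (0.08) were no longer called, and by the top transcript alone PSMA5 (0.10) and PSMD13 (0.02) were not. Library 104 carried part of the calls: without it, an alternative chosen after the data were seen, PSMB4, PSMB7, PSMC1 and PSMD5 were no longer called (adjusted p = 0.0882, 0.109, 0.112 and 0.0530, limma) and 11 of the 15 were. Of the genes that did not pass, PSMB6 differed by 0.02 (SE 0.0498), PSMD2 by -0.03 (SE 0.0949) and PSME4 by -0.12 (SE 0.221).

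The 3 immune catalytic genes had negative differences, of which that of PSMB9 passed the test. PSMB9 ranged from 1.18 to 4.90 FPKM (median 2.60) in re-analyzed animals, against 1.22 to 9.18 FPKM (median 3.36) in unmarked ones. It was below the unmarked median in 14 of 21 animals and was the 1 gene of the 36 that fell (-0.25, SE 0.0896, limma adjusted p = 0.0204), a call that was lost with quantile normalization (adjusted p = 0.0557, the highest of its 11 alternatives, the lowest being 0.0114). PSMB8 differed by -0.16 (SE 0.0942, adjusted p = 0.163) and PSMB10 by -0.13 (SE 0.0729, adjusted p = 0.130). Genes outside the immune set had differences of like size, PSMF1 with -0.14 and PSMB1 with -0.12, and PSME1 differed by -0.09 and PSME2 by 0.03, all uncalled. Of 10 genes of antigen processing 6 were lower and 0 higher, where 22.7% of all genes were lower, among them PDIA3, TAPBP, TAP2 and B2M. Of 11 tested macrophage and lymphocyte markers 8 were lower and 0 higher. CD3E, CD3D, CD8A, PTPRC and AIF1 were too low to be tested, and CD4, MS4A1 and CD79B were not measured. The lymphocyte part of the list was thus hardly covered. The 16 measured markers had summed levels of 147 to 331 FPKM in re-analyzed and 135 to 493 FPKM in unmarked animals. The medians of these sums were close, at 245 FPKM in re-analyzed and 248 FPKM in unmarked animals. Gene by gene, the 11 tested markers had a median difference of -0.50 log2 units (-0.67 to 0.09), and 1 of them was positive. Endothelial (5 of 9), collagen (10 of 10), fat cell (8 of 10) and red blood cell markers (2 of 2) were lower as well, and the part of these cell types in the values of the immune genes was not tested.

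**Figure D4:**
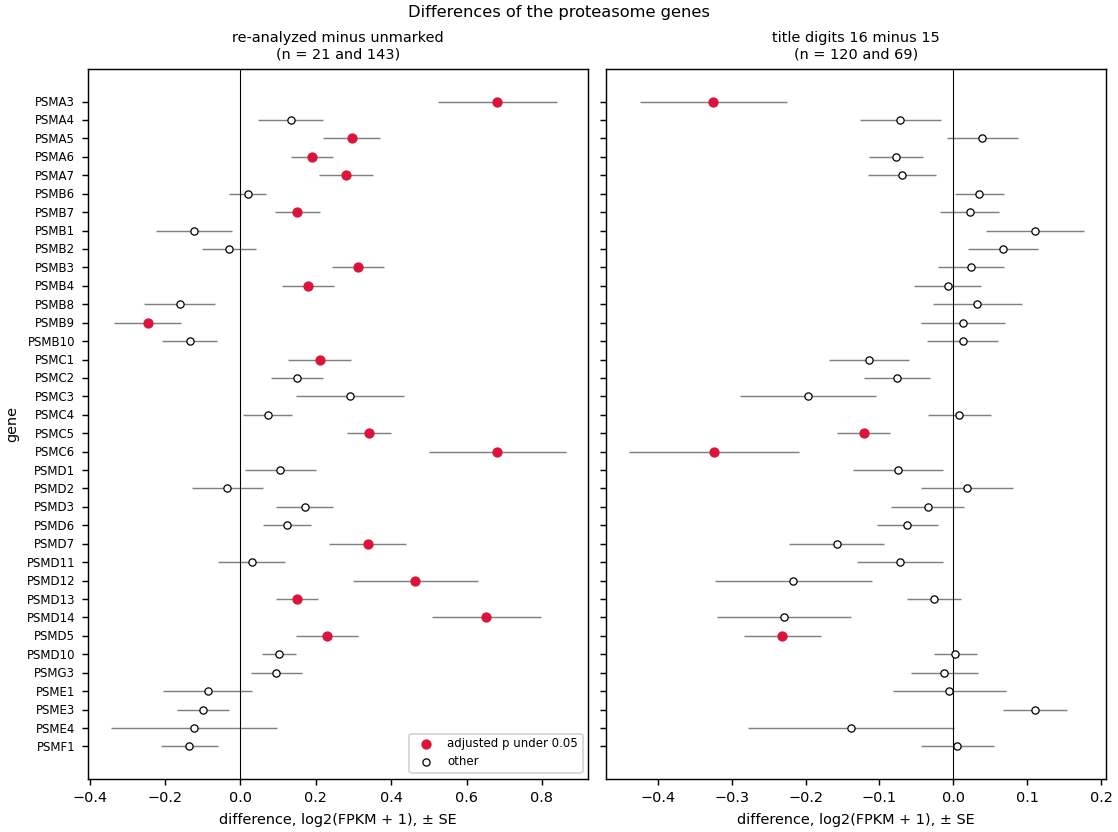
Differences in log2(FPKM + 1) with SE of the 36 tested proteasome genes (limma). Re-analyzed minus unmarked animals, with IMF as a linear covariate, are on the left and title digits 16 minus 15 on the right. Filled points have an adjusted p under 0.05. On the left 15 filled points lie right of 0 and PSMB9 left of it, and on the right 4 filled points lie left of 0.

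Each animal's log2 ratio of an immune to its constitutive gene, both with 1 FPKM added, was then compared. PSMB9 to PSMB6 averaged -3.23 ± 0.422 in the 21 re-analyzed animals and -2.95 ± 0.430 in the 143 unmarked ones. The difference of -0.28 had p = 0.00568 (permutation test, 2-sided) and an adjusted p of 0.0170 over the 6 ratio tests. PSMB10 to PSMB7 averaged -4.78 ± 0.409 in re-analyzed and -4.49 ± 0.418 in unmarked animals (difference -0.28, permutation p = 0.00457, adjusted p = 0.0170). The sets overlap over most of their range. In the PSMB9 pair PSMB6 hardly differed between the sets, and in the PSMB10 pair PSMB7 was called higher while PSMB10 was not called.

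Neither ratio was shown to follow IMF over the 164 animals. For PSMB9 to PSMB6, r was -0.11 (permutation p = 0.146, adjusted p = 0.220), Spearman's rho was -0.08 (permutation p = 0.350, adjusted p = 0.699) and r was -0.09 without the 2 animals farthest in IMF. Within the sets r was -0.19 in 21 re-analyzed and -0.10 in 143 unmarked animals. For PSMB10 to PSMB7, r and rho were both 0.01 (permutation p = 0.884 and 0.893, adjusted p = 0.884 and 0.893) and r was 0.01 without those 2 animals, with -0.06 in re-analyzed and 0.04 in unmarked animals.

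**Figure D5:**
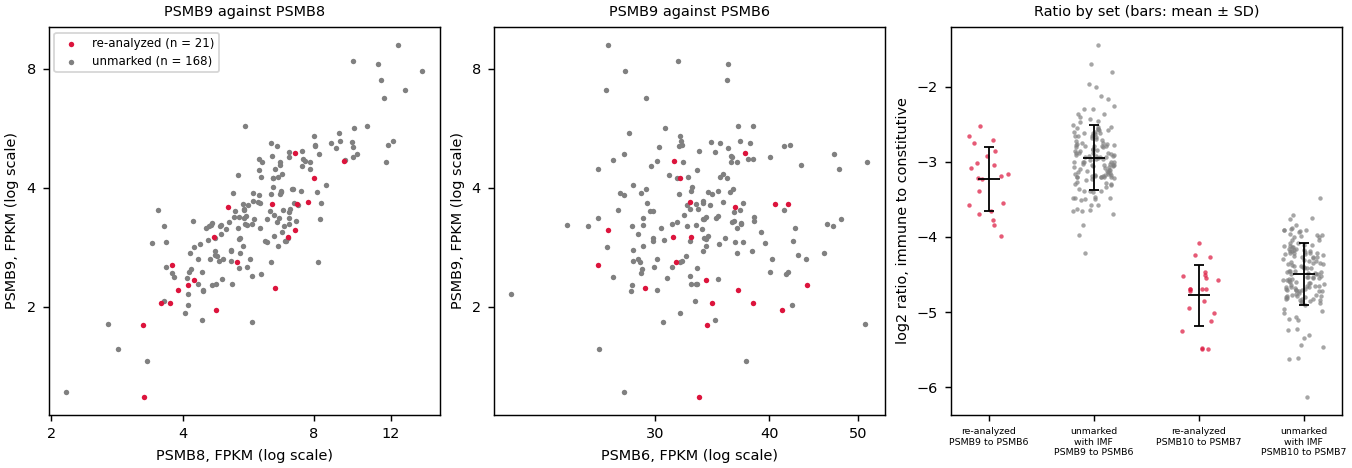
PSMB9 against PSMB8 and against PSMB6 in FPKM (log axes; 21 re-analyzed and 168 unmarked animals), and the log2 ratios of FPKM + 1, PSMB9 to PSMB6 and PSMB10 to PSMB7 in 21 re-analyzed and 143 unmarked animals with IMF, with bars for mean ± SD. PSMB9 follows PSMB8 (r = 0.83) and not PSMB6, and both ratios are lower in re-analyzed animals by 0.28.

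Genes that work with the proteasome were read from lists in the same comparison, in which 18.3% of all genes were higher and 22.7% lower. Of 13 associated and assembly genes 4 rose in re-analyzed animals and 0 fell. POMP averaged 52.3 ± 14.7 FPKM in the 21 re-analyzed and 36.7 ± 13.2 FPKM in the 143 unmarked animals (difference 0.53, SE 0.118, adjusted p = 0.000169). UCHL5, a deubiquitinase docked on the cap, differed by 0.67, its receptor ADRM1 by 0.37 and TXNL1 by 0.36. Of 8 genes of the NRF1 and NRF2 axis, which induces proteasome genes, NGLY1 (0.55) and NFE2L2 (0.48) rose and 0 fell, a share higher that is near that of all genes. Of 16 genes of ubiquitin and shuttle factors, 2 rose, NSFL1C and NPLOC4, and 3 fell, among them FAF2 and the autophagy receptor SQSTM1 (-0.60), shares no larger than those of all genes.

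Of 12 genes of the muscle atrophy list 1 was higher and 5 were lower, beside the same 18.3% and 22.7% of all genes. The ligase gene FBXO32 averaged 30.4 ± 24.0 FPKM in re-analyzed and 55.2 ± 42.1 FPKM in unmarked animals (-0.89, SE 0.212, limma adjusted p = 0.000403). TRIM63, which tags thick filament proteins, averaged 31.9 ± 16.1 FPKM in re-analyzed and 54.0 ± 43.8 FPKM in unmarked animals (-0.63, limma adjusted p = 0.00419), and the transcription factor FOXO1, which induces both ligases, differed by -0.48. Of 27 interferon response genes 2 were lower, STAT2 and IRF1, and 0 higher. The share of the library held by its 10 most abundant genes averaged 30.7 ± 4.01% in re-analyzed and 33.6 ± 4.63% in unmarked animals, and its part in these differences was not tested.

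Animals whose title starts with 16 were compared with those starting with 15, with the mark as a covariate. None of the 36 genes rose in animals with 16 (limma; 2.02% of all genes did) and 4 fell, or 11.1%, where 11.9% of all genes did, so that the count is near that of all genes. The medians were -0.03 over the 36 and -0.04 over all genes. The split of all genes depended on the scaling: 217 rose and 1276 fell as deposited, against 875 and 675 after libraries were brought to a common median.

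The chaperone gene PSMD5 ranged from 1.79 to 10.6 FPKM (median 5.24) in the 120 animals with 16, against 3.23 to 11.3 FPKM (median 6.28) in the 69 with 15. Of the 120, 88 lay below the median of the 69 (difference -0.23, SE 0.0522, limma adjusted p = 0.00445). PSMA3 ranged from 4.34 to 53.8 FPKM (median 22.2) in animals with 16, against 8.18 to 48.5 FPKM (median 30.2) in those with 15 (-0.32, SE 0.0992, adjusted p = 0.0218). PSMC5 differed by -0.12 (adjusted p = 0.0202), and by -0.06 and uncalled (adjusted p = 0.210, the highest of its 11 alternatives, the lowest being 0.0131) with a common median. PSMC6 differed by -0.32 (adjusted p = 0.0441), a call that was lost in 5 of its 11 alternatives: without library 39 (-0.31, adjusted p = 0.0578), without library 122 (-0.31, adjusted p = 0.0569), with quantile normalization, with a common median and with the title code as a random effect (adjusted p 0.0291 to 0.0594 over the 11). PSMD9, named by identifier, was the exception and rose by 0.09 (SE 0.0333, adjusted p = 0.0487). Markers of macrophages and lymphocytes rose in 5 of 11 cases here, among them C1QA, C1QB, C1QC and CSF1R, and 0 fell. CD3E, CD3D and CD8A were again too low to be tested. PSMB8, PSMB9 and PSMB10 differed by 0.01 to 0.03. Of the genes that fell, PSMD5, PSMA3 and PSMC6 belong to the group above that went with the makeup of the library. The mitochondrial share averaged 6.56 ± 2.07% in animals with 16 and 7.68 ± 2.08% in those with 15. The share of the 10 most abundant genes averaged 34.1 ± 4.8% and 32.4 ± 4.2%. The part of these shares in the differences was not tested.

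Resemblance between animals of 1 title code was tested over 146 animals of 48 codes. None of the 36 genes was called by the moderated F test (limma), where 1.82% of all genes were, and 2 had an unadjusted p under 0.05, PSMA7 and PSMB6. The intraclass correlation, the share of variance between codes, was 0.21 for PSMA7 and 0.19 for PSMB6 (adjusted p = 0.133 and 0.209). It had a median of 0.03 over the 36 genes and 0.05 over all genes. The ratio of PSMB9 to PSMB6 had an intraclass correlation of 0.12 (permutation p = 0.0760, adjusted p = 0.152) and that of PSMB10 to PSMB7 -0.01 (permutation p = 0.524, adjusted p = 0.628). Outside the 37, the cap receptor gene ADRM1 was called (adjusted p = 0.0317).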

How the data were processed

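The table deposited by the authors gives transcript levels of each animal, taken here as FPKM. HISAT2 2.0.5, StringTie 1.3.3 and the build Sscrofa11.1 are named in the submitters' processing notes, while the labels give no annotation release, transcript filter or strandedness. Values were summed per gene. limma 3.58.1 (R 4.3.3; lmFit, eBayes with trend) was fitted on log2(FPKM + 1) to the 10717 genes whose mean reached 0.5 FPKM, a scale that understates the change of low genes, with Benjamini-Hochberg adjustment over all of them and calls under 0.05. Ratio tests used 100000 permutations in Python 3.11.15. The fits were tested on simulated data. Without counts the depth is unknown, so errors are the spread between animals. The members and lists were chosen with earlier results of these data known. Named genes are all members, the 10 genes most like each score and up to 4 called genes per list with the smallest p. Alternatives changed the pseudocount, filter, scaling, transcript choice, covariates and libraries. The intended ratio of PSMB8 to PSMB5 was not computed.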

Additional observations from a re-analysis of the deposited data

Results flagged for a closer look

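In the 10 re-analyzed animals of high IMF, 38 values were searched for an animal far from the others, and 3 had one. PSMC3 reached 64.9 FPKM in library 155, where the next animal had 35.4 FPKM. In this group its 18-exon transcript, described above, reached 40.3 FPKM in 1 animal and was under 10 FPKM in the other 9. The 8-exon transcript reached at most 26.7 FPKM. PSMD10 reached 1.98 FPKM in library 136, with 1.38 FPKM in the next, and PSME3 6.97 FPKM in library 17, with 5.42 FPKM in the next. Where values are normally distributed, which was not tested for FPKM, chance flags about 1 in 20 searched values. With 38 searched, some flags can arise by chance.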

How the results depend on the processing

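No called difference changed its sign, and the counts for IMF, the interaction, high against low IMF and title codes stayed at 0 under every alternative run for them. Libraries 39 and 122 are unmarked and could not be left out of high against low IMF. Leaving out libraries 104 and 122 was chosen after the data were seen. The members higher in re-analyzed animals numbered 11 to 19 over the alternatives. The 1 member lower there became 0 with a mean of at least 5 FPKM, which removes PSMB9, and 0 with quantile normalization, and it became 2 with the top transcript only, which added PSMF1. For title digits 16 against 15, the 0 members higher became 1, PSME3, with quantile normalization and 1 with a common median, and the 4 lower became 2 with a common median, without PSMC5 and PSMC6, and 6 in unmarked libraries only; the cause was not tested. PSMA5 and PSMD13 were no longer called higher in re-analyzed animals by their top transcript. Both ratio differences stayed called, between -0.27 and -0.36. Read depth is unknown, so counting error at low levels such as that of PSMB10 could not be separated. No paired analysis was possible by replicate number because each belongs to 1 animal. With the title code as a random effect in its place, 15 members were higher and 1 lower in re-analyzed animals, and 3 of the 4 were lower for title digits, without PSMC6.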

Other observations

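Transcripts of other members also differed in spread. The main transcript of PSME4 (48 exons, 6997 bases) ranged from 0.525 to 22.1 FPKM with a median of 4.34, and its other transcripts averaged 0.776 ± 1.51 and 0.522 ± 0.462 FPKM (SD, n = 189). For PSMD14, the 12-exon transcript had a median of 19.2 FPKM, while 1 of its 11-exon transcripts had a median of 0.443 FPKM and reached 16.1 FPKM.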
